A study of Mus musculus with 13 samples.

Results

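The miR-7 family and miR-375-3p were followed in 13 primary abdominal neuroblastomas of TH-MYCN mice, in which MYCN is driven in the sympathetic lineage by the tyrosine hydroxylase promoter and tumours arise spontaneously. The members are the 6 mouse miRNAs on the array that are named as a form of miR-7a or miR-7b or as miR-375-3p, of 1079 mouse miRNAs in all. They are the guide strands mmu-miR-7a-5p, mmu-miR-7b-5p and mmu-miR-375-3p, and the passenger strands mmu-miR-7b-3p, mmu-miR-7a-2-3p and mmu-miR-7a-1-3p (written without the species prefix from here on). The study labelled 7 tumours as caspase-8 deficient with metastasis to the bone marrow and 6 as wild type for caspase-8 with no such metastasis. The title places both groups on the TH-MYCN background, but the labels do not give the transgene tumour by tumour, and the design text speaks of wild-type and transgenic mice. Genotype and metastasis thus changed together and cannot be told apart. The labels used here give neither the age of the mice nor how caspase-8 was lost, and they call the tumours biological replicates. Each tumour was read on 1 Agilent array of 1 colour, so the number of arrays limits the precision.

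miR-7 is a conserved miRNA of neurosecretory cells, with high levels in the pituitary, pancreatic islets and parts of the brain. It represses transcripts of growth factor signalling, and in neurons it is bound by the circular RNA Cdr1as, which carries many miR-7 sites and is cut through a site for miR-671-5p. miR-375-3p is a second miRNA of endocrine cells. It was first described as a regulator of insulin secretion in beta cells and is abundant in pituitary and other neuroendocrine tissue.

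The mature sequences from RefSeq (GRCm38.p6) are shown because they decide which locus each probe set can report on and show which members share a seed. Each is written 5′ to 3′, with the seed, bases 2 to 8, in capitals.
miR-7a-5p: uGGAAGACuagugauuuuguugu
miR-7b-5p: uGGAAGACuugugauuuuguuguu
miR-7a-1-3p: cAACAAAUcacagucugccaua
miR-7a-2-3p: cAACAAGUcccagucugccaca
miR-7b-3p: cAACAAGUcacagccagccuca
Of the 6 members, 5 had a mature entry in the table. The miR-7a and miR-7b guides share the seed GGAAGAC, which no other of the 1679 mature mouse miRNA names in the table holds. Counted from 1 at the 5′ end, miR-7a-5p and miR-7b-5p were identical at 22 of the 23 positions they share, with A10U as the substitution, and miR-7b-5p is longer at the 3′ end (24 against 23 bases). miR-7a-5p is made identically from Mir7-1 (chr13:58392841-58392863, minus strand, overlapping Hnrnpk) and Mir7-2 (chr7:78888295-78888317, plus strand), and its signal does not tell these loci apart. The passenger strands do differ by locus: miR-7a-1-3p comes from Mir7-1, miR-7a-2-3p from Mir7-2 and miR-7b-3p from Mir7b (its guide lies at chr17:56243017-56243040, plus strand). miR-7a-1-3p differed from miR-7a-2-3p by A7G, A10C and U21C, the first of which lies in the seed, whereas the passengers of Mir7b and Mir7-2 share the seed AACAAGU and differed at 4 positions outside it. How far a probe for one guide also binds the other was not tested.

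Levels are given as log2 of the summed probe signal after scaling of the arrays to a common 75th percentile. The scale is arbitrary, and levels of different miRNAs are not compared because probes differ in brightness. Between 338 and 469 mouse miRNAs were detected in a tumour. The arrays lay on 2 slides, where slide 1 held 5 deficient and 2 wild-type tumours and slide 2 held 2 deficient and 4 wild-type tumours, so group and slide were partly confounded. Of a list of 10 neuronal miRNAs, 10 were detected in enough tumours to be tested, and the summed signal of the list lay between 3736 and 9640 in the 13 tumours. Skeletal muscle miRNAs stood high in deficient tumours 3 and 4 and in wild-type tumour 1, at 11.87, 13.13 and 11.81 on the log2 scale for the sum of 4 miRNAs, against 9.25 in the next highest tumour.

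The guide strands and miR-7a-1-3p were detected in all 13 tumours, miR-7a-2-3p in 5 of 7 deficient and 6 of 6 wild-type tumours, and miR-7b-3p in 6 of 7 deficient and 4 of 6 wild-type tumours. All 6 members passed the filter for testing (detection on at least 6 arrays), as did 419 of the 1079 mouse miRNAs. miR-375-5p, the passenger of miR-375-3p and no member, was detected in 0 tumours. The probes of a guide were steady from spot to spot, with a median coefficient of variation between 3.37% and 4.61% over the spots of a probe. The probes of the passenger strands lay close to background, with median coefficients of 12.01% to 34.0%. The probe sets held 2 probes each. The levels of the 2 probes across the tumours correlated with r = 0.999 for miR-7b-5p, 0.99 for miR-375-3p and 0.90 for miR-7a-5p, and with r = 0.54 to 0.86 for the passenger strands (Pearson, n = 13, as a description).

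**Figure D1:**
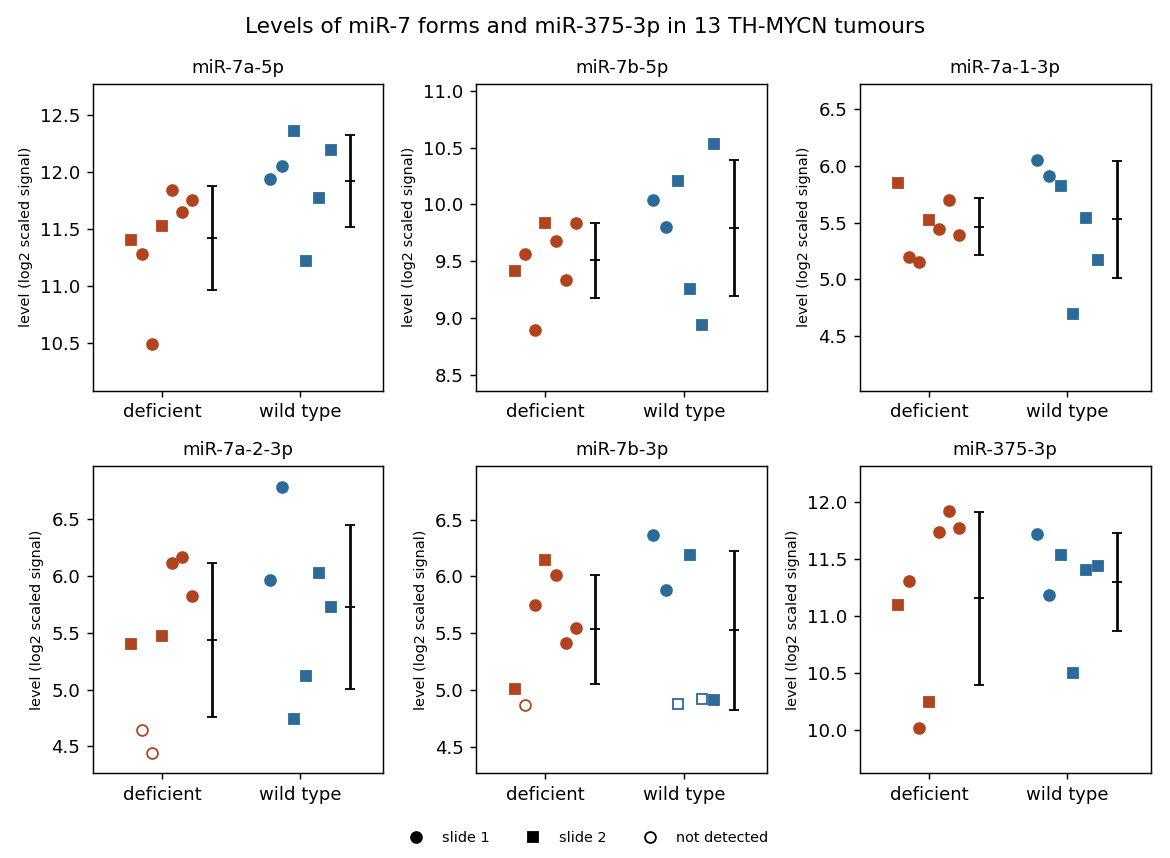
Level of each member (log2 scaled signal, 1 panel per miRNA, the same height in log2 units in each) in 7 deficient and 6 wild-type tumours. Circles are slide 1, squares slide 2, open symbols arrays on which the miRNA was not detected, and bars the mean ± SD. For miR-7a-5p 4 wild-type tumours lie above every deficient tumour, and deficient tumour 3 lies lowest, while in every panel the groups overlap.

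The comparison asks whether these miRNAs differ between caspase-8-deficient metastatic tumours and wild-type tumours without metastasis. No member passed the test. In bulk tissue fewer cells of a type and less RNA per cell cannot be told apart. mmu-miR-7a-5p had the smallest p among them. Its levels were 10.49 (lowest), 11.53 (median) and 11.85 (highest) in deficient tumours, against 11.22, 11.99 and 12.37 in wild-type tumours. All 7 deficient tumours lay below the wild-type median, and 4 of 6 wild-type tumours lay above every deficient tumour, but the ranges overlapped. The mean was 11.42 ± 0.45 (SD, n = 7) in deficient and 11.92 ± 0.40 (SD, n = 6) in wild-type tumours. The difference was −0.50 on the log2 scale (SE 0.25, 95% interval −1.03 to 0.02), or 0.706-fold, with a limma p of 0.0602 that ranked 25 of 419 and an adjusted p of 0.589. In both slides the deficient mean was lower, with differences of −0.59 in slide 1 and −0.42 in slide 2. A fit that took slide as a block gave −0.51 (limma adjusted p = 0.844). Leaving out wild-type tumour 4 gave −0.64 and leaving out deficient tumour 3 gave −0.35. Without the 3 tumours high in muscle miRNAs it was −0.33 (limma adjusted p = 0.65).

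mmu-miR-7b-5p, the guide that shares the miR-7a seed, had levels of 8.90 (lowest), 9.56 (median) and 9.84 (highest) in deficient tumours, against 8.94, 9.92 and 10.53 in wild-type tumours. Here too all 7 deficient tumours lay below the wild-type median and 3 wild-type tumours lay above every deficient one, but wild-type tumours 4 and 5 were among the lowest of all. The means were 9.51 ± 0.33 (SD, n = 7) in deficient and 9.79 ± 0.60 (SD, n = 6) in wild-type tumours, which differed by −0.29 (SE 0.26, 95% interval −0.85 to 0.28, limma adjusted p = 0.672). It was −0.46 within slide 1 and −0.10 within slide 2. Leaving out wild-type tumour 6, which had the highest level, gave −0.14, and leaving out wild-type tumour 5 gave −0.46. Without the 3 tumours high in muscle miRNAs it was −0.18.

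**Figure D2:**
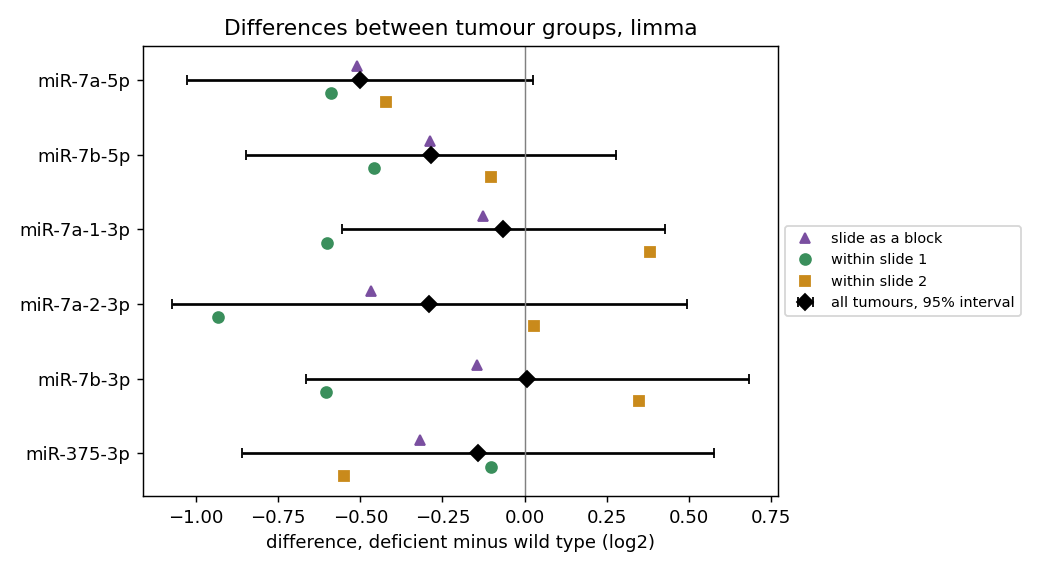
Difference of each member, deficient minus wild type (log2), from limma. Diamonds with bars give all 13 tumours with the 95% interval, triangles the fit with slide as a block, circles slide 1 and squares slide 2. Every interval contains 0, and the 3 passenger strands have negative differences within slide 1 and positive ones within slide 2.

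The passenger strands, which are normally degraded while the guide is kept, were dim and split by slide. miR-7a-1-3p, the strand made from Mir7-1 alone, had levels of 5.16, 5.44 and 5.85 (lowest, median and highest) in deficient tumours, against 4.69, 5.68 and 6.05 in wild-type tumours. The wild-type tumours spread more widely on both sides of the deficient ones. The difference was −0.07 (SE 0.23, limma adjusted p = 0.96), with −0.60 within slide 1 and 0.38 within slide 2, and it turned positive without scaling (0.13) and without wild-type tumour 1 (0.04). miR-7a-2-3p, made from Mir7-2 alone, had levels of 4.45, 5.47 and 6.17 in deficient tumours, against 4.74, 5.85 and 6.78 in wild-type tumours, and the 2 tumours in which it was not detected, deficient 2 and 3, were the lowest. Its difference was −0.29 (SE 0.37, limma adjusted p = 0.766), with −0.93 among slide 1 tumours and 0.03 among those of slide 2. Blocking on slide gave −0.47. Dropping 1 tumour gave −0.49 (without wild-type tumour 3) to −0.08 (without wild-type tumour 2), and leaving out the 3 tumours high in muscle miRNAs gave −0.05. For miR-7b-3p the levels were 4.87, 5.54 and 6.14 in deficient tumours, against 4.88, 5.40 and 6.36 in wild-type tumours, which differed by 0.01 (SE 0.31, limma adjusted p = 0.995). Slide 1 gave −0.60 and slide 2 gave 0.35, and the sign changed under other settings, such as −0.14 with slide as a block and −0.10 with scaling to the total miRNA signal. No direction can be read for it.

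mmu-miR-375-3p had levels of 10.01 (lowest), 11.30 (median) and 11.92 (highest) in deficient tumours, against 10.5001, 11.42 and 11.72 in wild-type tumours. The deficient tumours held both ends of the range: 2 lay below every wild-type tumour and 3 lay above every one. The means were 11.16 ± 0.76 (SD, n = 7) in deficient and 11.30 ± 0.43 (SD, n = 6) in wild-type tumours, which differed by −0.14 (SE 0.33, 95% interval −0.86 to 0.58, limma adjusted p = 0.915). The deficient mean was lower in both slides, with −0.10 in slide 1 and −0.55 in slide 2, and the fit with a block for slide gave −0.32 (limma adjusted p = 0.844). The 2 lowest tumours, deficient 3 at 10.01 and deficient 4 at 10.25, were both among the 3 high in muscle miRNAs. The third of these, wild-type tumour 1, was at 11.72, the highest of its group. Without all 3 the means were 11.57 ± 0.35 (SD, n = 5) in deficient and 11.21 ± 0.42 (SD, n = 5) in wild-type tumours, and the difference turned to 0.35 (SE 0.26, limma adjusted p = 0.645). It was also positive without deficient tumour 3 alone (0.05) or deficient tumour 4 alone (0.01), and with no scaling between arrays (0.05), whereas leaving out wild-type tumour 4 gave −0.30. The muscle list was detected in both groups, with 4 of its 4 miRNAs tested and the deficient mean lower for 2 and higher for 2. Its summed signal was 88.7 to 8994 in deficient and 163.3 to 3588 in wild-type tumours. The part of muscle in these levels was not tested beyond leaving these tumours out.

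**Figure D3:**
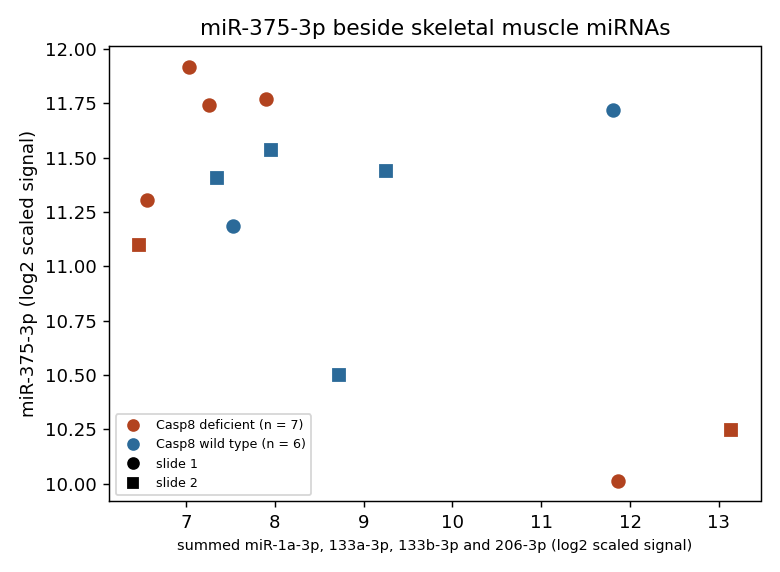
Level of miR-375-3p (log2 scaled signal, vertical) against the summed signal of miR-1a-3p, miR-133a-3p, miR-133b-3p and miR-206-3p (log2 scaled signal, horizontal) in the 13 tumours. Deficient tumours 3 and 4 combine a high muscle sum (11.87 and 13.13) with the lowest miR-375-3p, whereas wild-type tumour 1 has a muscle sum of 11.81 and a miR-375-3p level of 11.72.

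Over the 419 miRNAs tested, 0 (0%) passed a limma adjusted p of 0.05, and 16 (3.82%) had an unadjusted p under 0.05, while 0 of the 6 members did. The deficient mean was lower for 5 of the 6 members, with a median difference of −0.21, and for 45.8% of all tested miRNAs, with a median of 0.04. It was higher for 1 member, miR-7b-3p, and for 54.2% of all. Without scaling between arrays the deficient mean was lower for 3 of the 6, miR-7a-5p (−0.31), miR-7b-5p (−0.09) and miR-7a-2-3p (−0.10), where the median of all tested miRNAs was 0.23. With slide as a block it was lower for 6 of 6 members and for 45.3% of all. It was lower within both slides for 3 members, the guide strands, and for 27% of all tested miRNAs. The 3 passenger strands had opposite signs in the 2 slides, as did 49.4% of all. The ranges of the groups overlapped for all 6 members, and lay apart for 0.239% of all tested miRNAs. The members share sequence and precursors, so these counts are not independent, and they are given as a description.

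The residual SD within groups was 0.43 for miR-7a-5p, 0.47 for miR-7b-5p and 0.63 for miR-375-3p, against a median of 0.54 over all tested miRNAs. The group difference was smaller in size than this SD for miR-7b-5p and miR-375-3p and larger for miR-7a-5p. From the lowest to the highest tumour miR-375-3p spanned 3.74-fold, miR-7a-5p 3.67-fold and miR-7b-5p 3.09-fold.

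Across tumours the levels of the miR-7 guides correlated. Of 6 pairs of members compared, miR-7a-5p with miR-7b-5p gave Pearson r = 0.76 (permutation p = 0.00266, adjusted p = 0.016) and Spearman rho = 0.74 (permutation p = 0.00582, adjusted p = 0.0349) over 13 tumours. Without the 2 tumours farthest from the median of miR-7a-5p, deficient 3 and wild-type 3, r was 0.62 (permutation p = 0.0406). Leaving out deficient tumour 3 alone gave r = 0.68, which no longer passed (adjusted p = 0.0937), and leaving out the 3 tumours high in muscle miRNAs gave 0.71 (adjusted p = 0.131). The coefficient in slide 1 was 0.88 (exact permutation p = 0.0161, n = 7), with 0.71 within slide 2 (exact permutation p = 0.128, n = 6), and 0.82 among deficient and 0.75 among wild-type tumours. The sequences above differ by only 1 base in the shared stretch, so the share of this relation due to cross-binding of probes was not tested. The difference between their log2 levels in a tumour still varied over 1.24 units, and wild-type tumour 5 combined a miR-7a-5p level of 11.77 with a miR-7b-5p level of 8.94.

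miR-7a-5p with miR-375-3p, which share no seed, gave r = 0.70 (permutation p = 0.0077, adjusted p = 0.0231) and rho = 0.54 (permutation p = 0.0582, adjusted p = 0.128). This relation rested on the extreme tumours: without deficient 3 and wild-type 3, r was 0.49 (permutation p = 0.121). Without deficient tumour 3 alone it was 0.48 (adjusted p = 0.255), without wild-type tumour 4 alone 0.67 (adjusted p = 0.0674), and without the 3 tumours high in muscle miRNAs it was 0.46 (adjusted p = 0.366). Slide 1 gave 0.82 (exact permutation p = 0.0607, n = 7) with rho = 0.11, and slide 2 gave 0.76 (exact permutation p = 0.104, n = 6). Among deficient tumours, with tumour 3 included, r was 0.76 (exact permutation p = 0.0296, n = 7). Among wild-type tumours it was 0.79 (exact permutation p = 0.0847, n = 6). With slide as a block r was 0.80 (permutation adjusted p = 0.0189), and with the mean of log2 probe levels 0.64 (permutation adjusted p = 0.0575). For miR-7b-5p with miR-375-3p r was 0.39 (permutation p = 0.188, adjusted p = 0.225), and 0.25 without the 3 tumours high in muscle miRNAs (adjusted p = 0.576).

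Each passenger strand comes from 1 Mir7 locus, but its probes lay close to background. Their correlations with miR-7a-5p therefore cannot show which locus its signal follows. miR-7a-5p with miR-7a-1-3p gave r = 0.51 (adjusted p = 0.119) and with miR-7a-2-3p r = 0.54 (adjusted p = 0.106), neither past the threshold. Both passed under 3 other treatments of array scale. With the total miRNA signal r was 0.73 (adjusted p = 0.00952) and 0.66 (adjusted p = 0.0218), with the 75th percentile over all mouse miRNAs 0.69 (adjusted p = 0.019) and 0.63 (adjusted p = 0.0316), and without scaling 0.67 (adjusted p = 0.0244) and 0.62 (adjusted p = 0.0314). With quantile normalization neither passed, at 0.34 (adjusted p = 0.292) and 0.58 (adjusted p = 0.0751). Nor did they pass with normexp background, at −0.098 and 0.061 (adjusted p = 0.839 for both). The mean of log2 probe levels gave 0.40 and 0.38 (adjusted p = 0.239 for both). The series matrix gave 0.36 (adjusted p = 0.268) and 0.49 (adjusted p = 0.144). Without scaling r was also higher for miR-7b-5p with miR-7b-3p, at 0.28 (adjusted p = 0.345). Without the 3 tumours high in muscle miRNAs r was 0.46 (adjusted p = 0.366) and 0.28 (adjusted p = 0.576). The relation with miR-7a-2-3p differed by slide, with r = 0.89 within slide 1 (exact permutation p = 0.00357, n = 7) and −0.11 within slide 2 (exact permutation p = 0.825, n = 6). The relation also differed by group, which was partly confounded with slide. Here r was 0.88 among deficient (exact permutation p = 0.00159, n = 7) and 0.06 among wild-type tumours (exact permutation p = 0.919, n = 6). It was 0.84 without wild-type tumour 3 (adjusted p = 0.00264), which had the highest miR-7a-5p level and a miR-7a-2-3p level of 4.74, and 0.31 without deficient tumour 3 (adjusted p = 0.488). miR-7b-5p and its own passenger miR-7b-3p gave r = −0.05 (adjusted p = 0.862). These permutation p-values are two-sided and were adjusted over the 6 pairs.

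**Figure D4:**
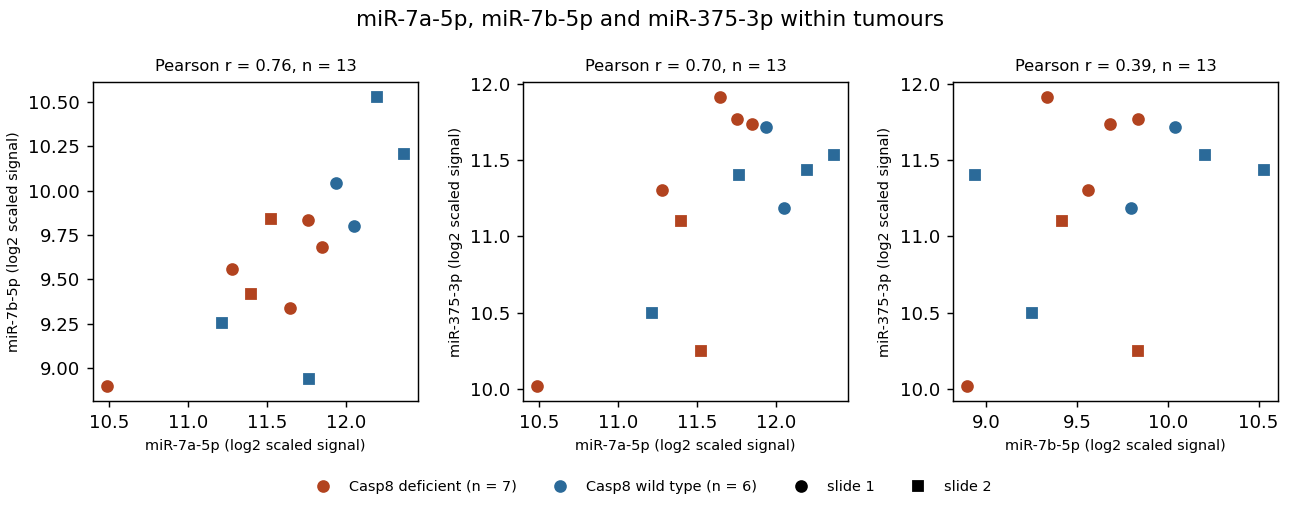
Levels of miR-7b-5p and miR-375-3p against miR-7a-5p, and of miR-375-3p against miR-7b-5p, in the 13 tumours (log2 scaled signal on both axes). Colour gives the group and symbol the slide. The first 2 panels rise from lower left to upper right (r = 0.76 and 0.70), with deficient tumour 3 at the lower end of all 3, and the third is more scattered (r = 0.39).

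The miRNAs whose pattern over the 13 tumours was most like that of a member were named by Pearson r, with the other members left out and as a description. For miR-7a-5p these were miR-384-5p (r = 0.78), miR-325-3p (0.77) and miR-34b-5p (0.76), where the median over all other tested miRNAs was −0.01. For miR-7b-5p they were miR-129-2-3p (0.86), miR-384-5p (0.82) and miR-132-3p (0.81), and miR-384-5p thus stood in both lists. Each of these was above 0.74 within either slide, but they were picked on the same 13 tumours, so this is no separate support. Their Spearman rho over the 13 tumours lay between 0.66 and 0.89. miR-132-3p is induced by neuronal activity through CREB, and the miR-34 family is induced by p53. Of the 5 miRNAs named for the miR-7 guides, miR-129-2-3p had the largest difference between group means, at 6.73 ± 1.22 (SD, n = 7) in deficient and 8.47 ± 1.83 (SD, n = 6) in wild-type tumours, and it did not pass (difference −1.74, limma adjusted p = 0.589). For miR-375-3p the closest were miR-127-3p (0.65) and miR-154-5p (0.55), both of the imprinted Dlk1-Dio3 cluster, and miR-652-3p (0.52). Their differences between the groups were −0.03, −0.15 and −0.33, with limma adjusted p from 0.611 to 0.984.

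In the neuronal list the deficient mean was lower for 7 miRNAs and higher for 3, the median difference was −0.28, and 0 passed the test. The 2 brightest were miR-218-5p, abundant in motor neurons, with a difference of 0.06 (SE 0.26), and miR-128-3p, a brain-enriched miRNA, with −0.25 (SE 0.21). Their limma adjusted p-values were 0.972 and 0.668. Each was also set against the guides across the 13 tumours, which gave 30 relations. miR-7b-5p passed with 3 of them by Pearson's r: miR-132-3p (r = 0.81, permutation p adjusted over the 30 of 0.022), miR-129-5p (0.79, adjusted p = 0.0264) and miR-138-5p (0.70, adjusted p = 0.0298). miR-7a-5p passed with 1, miR-129-5p (0.74, adjusted p = 0.0298), and miR-375-3p with 0. By Spearman's rho 0 of the 30 passed, where the highest rho was 0.75 (adjusted p = 0.0639), for miR-7b-5p with both miR-129-5p and miR-138-5p. miR-138-5p was detected in 5 of 7 deficient and 4 of 6 wild-type tumours. Without the 2 tumours farthest from its median, miR-7b-5p kept r = 0.68 with miR-132-3p, 0.73 with miR-129-5p and 0.63 with miR-138-5p, and miR-7a-5p had 0.45 with miR-129-5p (permutation p = 0.16). Median r over the list was 0.49 for miR-7a-5p, 0.50 for miR-7b-5p and 0.14 for miR-375-3p, and the differences between these were not tested. Over all other tested miRNAs the medians were −0.01, −0.08 and −0.05 in the same order. The share of all tested miRNAs that would pass in the same way is not given here, so the counts above do not set the neuronal list apart. miR-9-5p, a miRNA of neural progenitors, had r = −0.09 with miR-7b-5p over the 13 tumours (permutation p adjusted over the 30 of 0.907). Within slide 1 it was 0.95 (n = 7) and within slide 2 −0.38 (n = 6), a split picked out after the values were seen.

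**Figure D5:**
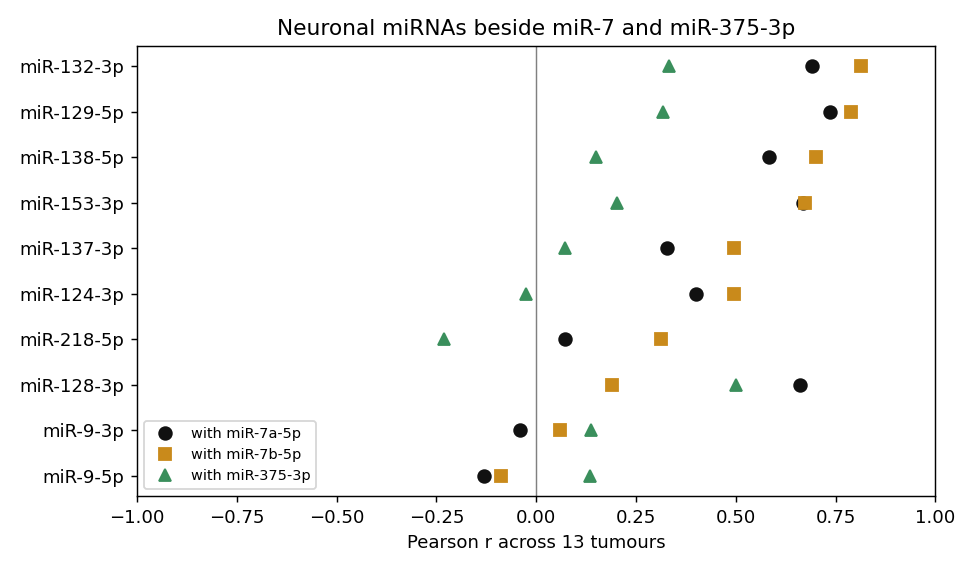
Pearson correlation across the 13 tumours of 10 neuronal miRNAs (rows) with miR-7a-5p (circles), miR-7b-5p (squares) and miR-375-3p (triangles). miR-132-3p, miR-129-5p and miR-138-5p lie at 0.70 or more with miR-7b-5p, and the triangles lie between −0.23 and 0.50.

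Of 9 miRNAs of neuroendocrine and sensory epithelium, the miR-183 cluster, miR-184-3p and the miR-200 family, 8 were detected in 0 tumours, and miR-200b-3p was detected in 1 deficient tumour. The pancreatic acinar miRNAs miR-216a-5p, miR-216b-5p and miR-217-5p were detected in 0 tumours, and the liver miRNA miR-122-5p in 1 deficient tumour. Of 3 miRNAs of gut and kidney epithelium 2 were tested and lay near background, with a summed signal of 35.98 to 84.8 in deficient and 30.3 to 94.2 in wild-type tumours. miR-671-5p, which directs cleavage of Cdr1as, was detected in all 13 tumours, at 8.68 in deficient and 8.29 in wild-type tumours on average (difference 0.38, SE 0.36, limma adjusted p = 0.674), and miR-671-3p in 0. Cdr1as itself is not a miRNA and was not measured.

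Of other cell types, 2 of the 3 listed erythroid miRNAs were tested, and both had higher means in deficient tumours (median difference 0.83). Their summed signal was 19934 to 83502 in deficient and 4988 to 69047 in wild-type tumours. Of 5 leukocyte miRNAs 4 were tested, 2 lower and 2 higher, with sums of 816.6 to 4063 in deficient and 651.3 to 4691 in wild-type tumours. Of 5 vessel and stroma miRNAs 1 was lower and 4 were higher, with sums of 1829 to 6117 in deficient and 2326 to 4341 in wild-type tumours. No miRNA of these lists passed the test, and their part in the levels of the members was not tested.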

How the data were processed

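The deposited scanner files hold the intensity of each spot after subtraction of background and a spatial trend, per the file headers, and arrays are not scaled to each other there. Detection and outlier marks are other information of the scanner software, per the file headers. The headers name Feature Extraction 10.7.3.1 and the submitters' processing notes 10.5.1.1. The deposited series matrix holds log2 values that the authors made nearly equal in distribution, and its software is not given in the sources used here. Of 47604 spots per array 2164 controls were left out. Spots without outlier marks were averaged per probe, probes summed per miRNA, and arrays scaled by percentile 75 of the 294 miRNAs detected on all 13 arrays. Values under 17.2, percentile 1 of the detected ones, were set to it before log2. No spot was saturated. The 419 miRNAs detected on at least 6 arrays were fitted together with limma 3.58.1 (R 4.3.3, two-sided, Benjamini-Hochberg, threshold 0.05) and tested on simulated data. Correlations used 100000 permutations, or all permutations for fewer than 10 tumours. Alternatives covered scaling, background (normexp on the deposited median signals), probe summary, filters, slide, replicate block and left-out tumours. Members and lists were chosen with earlier results of these data known. Named miRNAs were the members, the 3 most correlated with each guide, and the 2 brightest tested of the neuronal and Cdr1as lists, other miRNAs being chosen after their values were seen or named only as list members. Erythroid miR-486-5p was not analysed here. The limma p-values set group differences against the spread between these tumours, with slide left out of the main fit. The permutation p-values test the association of 2 miRNAs across these tumours. The array design names mm9, while sequences and their positions are from GRCm38.p6.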

Additional observations from a re-analysis of the deposited data

Results flagged for a closer look

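The level of miR-7a-5p in deficient tumour 3 was 10.49, and the gap to the next lowest deficient tumour was 0.583 of the range of the group, which made it stand out as a single low tumour among 7. It was the only one of 12 combinations of member and group that did so. Chance alone gives about 1 in 20 for each combination, so 1 flag among 12 is not unusual. The members correlate, so the 12 are not independent. Deficient tumour 3 also had the lowest miR-7b-5p, miR-375-3p and miR-7a-2-3p levels and was among the 3 high in muscle miRNAs. Without it the difference of miR-7a-5p was −0.35.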

How the results depend on the processing

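The count of miRNAs past the threshold was 0 under the 32 alternatives run for it, with a smallest adjusted p of 0.0644 (array weights) and 0.0794 (replicate number as a block). miR-7a-5p and miR-7b-5p kept a lower deficient mean in all 34 alternatives each, from −0.642 to −0.346 and from −0.456 to −0.138 with 1 tumour left out. The alternatives of floor, detection filter and variance moderation could not change these differences and returned the main values, −0.501 and −0.285. Without scaling the median difference of all tested miRNAs was 0.226, against 0.0413 with it. The other members changed sign in places, and for these changes the cause was not tested. miR-375-3p gave 0.0517 without scaling and 0.353 without the 3 tumours high in muscle miRNAs, and −0.302 to 0.0483 with 1 tumour left out. miR-7a-1-3p gave 0.128 without scaling, 0.0636 with quantile normalization, 0.381 within slide 2 and 0.0888 without the high-muscle tumours, and −0.233 to 0.0388 with 1 left out. miR-7a-2-3p gave 0.0295 within slide 2 and −0.486 to −0.0789 with 1 left out. miR-7b-3p gave −0.103 with the total signal, −0.0894 with normexp background, −0.0559 with the mean of log2 probe levels, −0.0244 with outlier spots kept, −0.0531 with 4 times the floor, −0.153 with the dimmer probe, −0.157 with array weights, −0.145 with slide as a block and −0.603 within slide 1, and −0.121 to 0.176 with 1 left out. Of the correlations, miR-7b-5p with miR-7b-3p gave 0.284 without scaling, 0.254 with the total signal, 0.0456 with quantile normalization, 0.00152 with the mean of log2 probe levels, 0.184 with 4 times the floor, 0.0881 with the series matrix and 0.36 within slide 1, and −0.233 to 0.167 with 1 tumour left out. miR-7a-5p gave −0.0977 with miR-7a-1-3p under normexp background and −0.109 with miR-7a-2-3p within slide 2. At 4 times the floor miR-7a-1-3p had no value, being at the floor in every tumour. The labels do not say that the replicate numbers pair the tumours. Same-numbered tumours correlated from −0.22 to 0.194 in their deviations, which are too few values to settle it. With the replicate block 63 of 419 miRNAs had an unadjusted limma p under 0.05, against 16 in the main fit. Deficient tumour 7 has no wild-type tumour of the same number, so these fits do not compare the same tumours. Leaving out that tumour with no block already gave 37, so the rise from 16 to 63 cannot be put down to the block alone. With the replicate block miR-7a-5p differed by −0.557, miR-7b-5p by −0.339 and miR-375-3p by −0.244, all short of the threshold. Leaving out deficient tumour 7 with no block gave the same differences, so the block itself did not change them. The high-muscle and single-probe alternatives were chosen after seeing the data.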
